A study of Homo sapiens with 36 samples.

Results

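The genes of the EGF receptor ligands, AREG, EREG, EPGN, BTC, EGF, HBEGF and TGFA, were examined in peak lists from chromatin immunoprecipitation followed by sequencing (ChIP-seq). They are 7 of the 20033 protein-coding genes in the annotation and were taken by membership of the family. A peak was assigned to a gene when it lay within 3 kb of any of its annotated start sites, and peaks of the Jun family were also followed out to 100 kb. Of the 475211 peaks in 16 lists, 106 lay within 3 kb of a member start site. Merging overlapping JunB, Jun and JunD peaks gave 72011 Jun-family regions in the genome, of which 61 lay within 100 kb of a member.

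The lists came from A549, a human lung adenocarcinoma cell line, and from BEAS-2B (B2B), an immortalized line of non-cancerous bronchial epithelial cells. The labels name no treatment, and each is a single established line, so that a difference between them cannot be told apart from a difference between the donors or culture histories of the lines. Each group held 2 replicates, which had been merged before peaks were called, and 4 input samples were not analysed here. RNA polymerase II (pol II), the promoter mark H3K4me3, the acetylation mark H3K27ac of active promoters and enhancers, the Mediator subunit Med1, JunB, Jun and JunD were mapped in both lines, whereas CTCF and the cohesin subunit Rad21 were analysed in B2B. With 1 pooled list per target and line there is no replicate error, and every difference below is a description of these lists without a test.

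Ligands of this family are made as precursors anchored in the cell membrane and are released by metalloproteases, among them ADAM17. The released ligand binds EGFR, and some members (BTC, EREG, HBEGF) also bind ERBB4. Receptor signalling passes through RAS and the MAP kinases to AP-1, a transcription factor made of a Jun and a Fos family protein, and amphiregulin (AREG), epiregulin (EREG), TGF-alpha (TGFA) and heparin-binding EGF (HBEGF) are widely studied as autocrine growth factors of epithelial cells. In hg38, EPGN (ENSG00000182585.10, 74308470 to 74316789, plus strand), EREG (ENSG00000124882.4, 74365145 to 74388749, plus strand), AREG (ENSG00000109321.11, 74445136 to 74455005, plus strand) and BTC (ENSG00000174808.12, 74744759 to 74794523, minus strand) lie near each other on chromosome 4. EGF (ENSG00000138798.13, 109912883 to 110013766, plus strand) lies farther along the same chromosome, HBEGF (ENSG00000113070.8, 140332843 to 140346603, minus strand) is on chromosome 5 and TGFA (ENSG00000163235.16, 70447284 to 70554193, minus strand) on chromosome 2.

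A few facts of the lists bear on the values. The number of reads at a summit and the local background of the caller were solved from the deposited fold enrichment and p-value, which gave whole reads for 475211 of 475211 peaks. The lowest background of a list was similar in both lines for each target (for H3K27ac, 1.25 reads in A549 and 1.44 in B2B; for pol II, 1.65 and 1.67). The median local background was similar for Med1 (1.78 and 1.99) and for JunB, Jun and JunD, but not for the other 3 shared targets: 2.36 reads in A549 and 9.31 in B2B for pol II, 3.31 and 27.7 for H3K4me3, and 2.26 and 11.5 for H3K27ac. Fold enrichments at start sites are therefore not set against each other between the lines. Reads at the summit divided by the lowest background of the same list are used instead and are called the level below. The local background is not subtracted from these reads. Of the markers chosen to check the labels, 4 of 5 epithelial genes had an H3K4me3 peak in each line (KRT19 did not), as did 3 of 3 mesenchymal genes and 2 of 4 lung lineage genes, with the surfactant genes SFTPA1 and SFTPB lacking it. CDKN2A and CDKN2B, which are known to be deleted in A549, had H3K4me3 peaks in B2B and none in A549.

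The promoters of the neighbours AREG and EREG are shown because both carried a Jun peak at the start in A549 and none there in B2B. TGFA, on another chromosome, also carried a Jun peak at a start site in A549 alone and is not printed. Capitals mark TGACGTCA, the cAMP response element that Jun proteins can also bind with partners of the ATF family, and TATAAA, the TATA box. Both runs are the 250 bases before the RefSeq start on the plus strand (GRCh38.p14), at chr4:74444886-74445135 for AREG and chr4:74364895-74365144 for EREG.
AREG promoter: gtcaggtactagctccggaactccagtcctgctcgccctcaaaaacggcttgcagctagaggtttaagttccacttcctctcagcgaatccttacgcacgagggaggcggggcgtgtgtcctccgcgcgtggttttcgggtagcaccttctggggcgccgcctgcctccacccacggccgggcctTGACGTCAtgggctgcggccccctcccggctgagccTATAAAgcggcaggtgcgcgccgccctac
EREG promoter: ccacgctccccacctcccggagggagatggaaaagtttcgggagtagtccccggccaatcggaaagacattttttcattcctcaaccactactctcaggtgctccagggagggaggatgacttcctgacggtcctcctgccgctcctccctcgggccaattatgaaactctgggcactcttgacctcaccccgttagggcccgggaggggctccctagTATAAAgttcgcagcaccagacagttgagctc
In AREG the cAMP response element began 65 bases before the start and the TATA box 29 bases before it, and in EREG the TATA box began 32 bases before the start. A window from 250 bases before to 50 bases after the start was available for all 7 members, with TGFA having 2 such windows. TATAAA on the gene's strand was found in AREG, EREG and EPGN and in 7.33% of all 35116 promoters. TGACGTCA, which reads the same on both strands, was found in AREG alone among the members and in 1.85% of promoters. The AP-1 site, TGACTCA or its reverse complement TGAGTCA, was found in EGF alone, 17 bases before its start, and in 4.95% of promoters. Base composition ranged from 37.7% G and C in EPGN to 75.3% in TGFA, and the EPGN and EGF windows held 4 CpG dinucleotides each against 38 in HBEGF.

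AREG, EREG, BTC, HBEGF and TGFA carried pol II, H3K4me3, H3K27ac and Med1 at their start sites in A549, whereas EPGN and EGF carried none of the 4. For pol II this was 5 of 7 members (68.8% of the 12573 coding genes on chromosomes 1 to 12), for H3K4me3 5 of 7 (74.6% of genes), for H3K27ac 5 of 7 (73.5%) and for Med1 5 of 7 (54.2%). In B2B the same 5 genes had H3K27ac (64.3% of genes), and all but TGFA had H3K4me3 (63.1% of genes) and Med1 (60.7% of genes). A pol II peak was called in B2B at EREG and HBEGF only (2 of 7, with 51.7% of genes). AREG, BTC and TGFA thus had pol II in A549 and none in B2B, a pattern seen in 18.5% of genes. TGFA was the 1 member with H3K4me3 in A549 and none in B2B (12.8% of genes) and the 1 member with Med1 in A549 and none in B2B (3.99% of genes). For H3K27ac there was no such member (11.2% of genes).

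**Figure D1:**
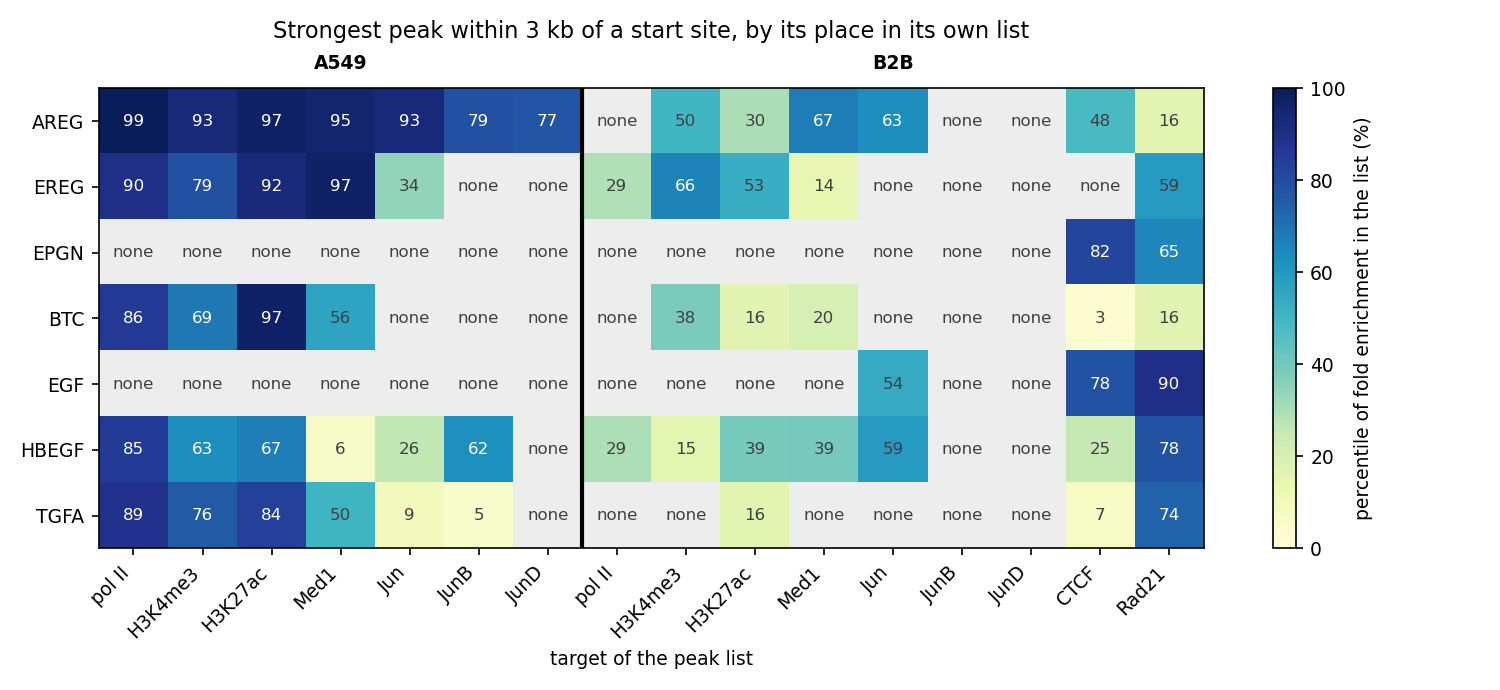
Strongest peak within 3 kb of a start site of each gene, as its percentile by fold enrichment among all peaks of its own list; columns are the 7 A549 and 9 B2B lists and "none" marks no peak. AREG stands at the 99.3 percentile of the A549 pol II list and has no pol II peak in B2B, and EPGN and EGF are empty but for B2B lists.

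AREG, which encodes amphiregulin, had the strongest pol II peak of the family in A549. This peak held 273 reads, at the 99.3 percentile of that list by fold enrichment, and no pol II peak was called in B2B. H3K27ac at the start of AREG reached 242 reads in A549 and 107 in B2B. On the level scale these were 194 and 74.2 times the lowest background, a ratio of 2.62 (95% exact binomial interval 2.08 to 3.32, for counting error only). Over the 7830 coding genes with H3K27ac in both lines the median ratio was 1.28, with 1.89 as the 90th percentile, so AREG stood above it. Med1 held 44 reads in A549 and 17 in B2B, a level ratio of 2.75 (1.54 to 5.13), against a median of 1.04 and a 90th percentile of 1.75 over genes. H3K4me3 held 149 and 91 reads, a level ratio of 1.67 (1.28 to 2.19), against 1.21 and 1.51.

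The H3K4me3 peak of AREG in A549 was 5.92 kb wide, wider than 99.5% of peaks in its list, and reached from the start into the gene. In B2B 2 H3K4me3 peaks of 0.234 and 0.63 kb were called there, at the 15.6 and 49.9 percentiles of width in their list. Pol II peaks covered 58.9% of the AREG gene in A549 (9 peaks) and none of it in B2B, and H3K4me3 peaks covered 60.9% and 6.86%. Coverage was not computed over other coding genes or with lists of equal length. The A549 lists are longer, with 45938 pol II and 32801 H3K4me3 peaks against 25234 and 26112 in B2B. The contrast is thus not shown to be particular to this gene. The local background at the AREG start was 1.29 reads for H3K27ac in A549 and 24.4 in B2B, and for H3K4me3 it was 2.45 and 42.8. A higher background raises the number of reads that a call needs, and its part in the missing pol II call was not tested.

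EREG, the gene of epiregulin, is the next coding gene upstream of AREG and resembled it. Pol II held 138 reads at its start in A549 and 42 in B2B, a level ratio of 3.33 (2.34 to 4.82), where genes called in both lines had a median of 1.31 and a 90th percentile of 2.1. H3K27ac held 190 and 70 reads, a ratio of 3.14 (2.38 to 4.19). Med1 held 54 and 15 reads, a ratio of 3.82 (2.12 to 7.29), and H3K4me3 134 and 74, a ratio of 1.85 (1.38 to 2.49). All 4 ratios were above the 90th percentile of genes for their target, and no interval reached 1. As at AREG, the A549 H3K4me3 peak was broad, 5.05 kb (wider than 99% of its list). The B2B peak was 1.28 kb wide (wider than 81% of its own list). In A549 25 pol II peaks covered 53.6% of the EREG gene, whereas in B2B 1 pol II peak lay in the gene and covered 0.602% of it. The limits on coverage given for AREG hold here too. The local background at EREG was 1.65 reads for pol II in A549 and 14.7 in B2B.

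BTC, the gene of betacellulin, carried 240 H3K27ac reads in A549 and 76 in B2B, a level ratio of 3.65 (2.81 to 4.79), the highest H3K27ac ratio in the family. Pol II held 117 reads in A549 and was not called in B2B. H3K4me3 held 131 and 90 reads, a ratio of 1.48 (1.13 to 1.96) that stayed below the 90th percentile of genes. Med1 held 16 and 11 reads, and the ratio of 1.54 (0.673 to 3.68) could not be told from 1 at this depth.

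TGFA, the gene of TGF-alpha, held 212 pol II reads, 187 H3K4me3 reads and 26 Med1 reads in A549, none of which had a called peak in B2B. H3K27ac was called in both, with 255 reads in A549 and 140 in B2B, a level ratio of 2.11 (1.71 to 2.61). In B2B the start of TGFA also carried CTCF with 176 reads and Rad21 with 259. Local backgrounds there were 27.8 times the lowest of the list for H3K27ac, 29.4 times for CTCF and 32.5 times for Rad21, against 2.55 times for H3K27ac in A549. Their part in the missing B2B calls was not tested.

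HBEGF, the gene of heparin-binding EGF, had pol II, H3K4me3, H3K27ac and Med1 levels at its start that did not differ between the lines beyond counting error. Pol II held 249 reads in A549 and 257 in B2B, a level ratio of 0.981 (0.821 to 1.17). H3K4me3 held 156 and 159 reads, a ratio of 1 (0.797 to 1.26), and H3K27ac 157 and 179, a ratio of 1.01 (0.814 to 1.26). For Med1 the ratio was 0.805 (0.441 to 1.45). By fold enrichment the same pol II peaks read 39.9 in A549 and 3.76 in B2B, beside local backgrounds of 5.27 and 67.6 reads. Local backgrounds were 5.4 reads in A549 and 71.9 in B2B for H3K4me3, and 5.6 and 48.4 for H3K27ac. The level includes these background reads, so equal levels do not show equal signal above background. Relative to the median of genes called in both lines (1.31 for pol II, 1.28 for H3K27ac), HBEGF stood lower, and within the 10th to 90th percentiles of 0.844 to 2.1 and 0.912 to 1.89.

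**Figure D2:**
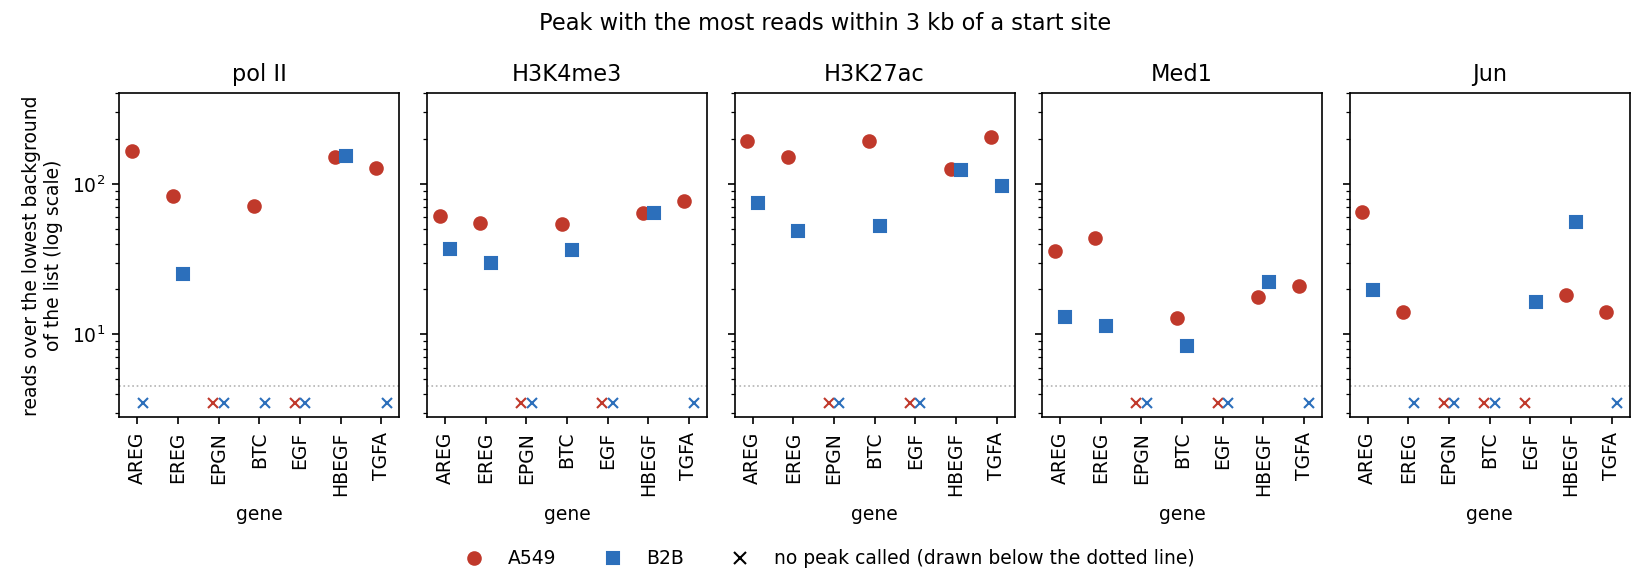
Reads at the summit of the peak with the most reads within 3 kb of a start site, divided by the lowest background of its list (log scale), in A549 (circles) and B2B (squares); crosses under the dotted line mark genes without a peak. For H3K27ac the A549 circles of AREG, EREG, BTC and TGFA stand above the B2B squares, and those of HBEGF coincide at 126 and 124.

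Among the members called in both lines, the level ratio was above the 90th percentile of genes for 4 of 5 in H3K27ac, 1 of 2 in pol II, 2 of 4 in H3K4me3 and 2 of 4 in Med1, where 10% of genes lie above it by definition. No ratio of these 4 targets lay below the 10th percentile. EPGN, the gene of epigen, and EGF itself had no peak of the 4 targets in either line. EPGN also had none of the Jun family, and 18.7% of genes had no peak of the 7 shared targets in either line.

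Jun-family peaks within 3 kb of a start site were called at AREG, EREG, HBEGF and TGFA in A549 and at AREG, HBEGF and EGF in B2B. The share of genes with any Jun-family peak was 45% in A549 and 27.2% in B2B. EREG and TGFA were called in A549 alone (23.8% of genes) and EGF in B2B alone (5.97% of genes). Of these 3 calls TGFA kept its call at the other distances: within 10 kb EREG and EGF were called in both lines, and with gene starts alone EGF was called in neither. AREG was called in A549 alone within 1 kb or with gene starts alone, and HBEGF in neither line within 1 kb. Jun accounted for most calls, with 4 members in A549 (39.2% of genes) and 3 in B2B (27.1% of genes). JunB was called at AREG, HBEGF and TGFA in A549 (32.3% of genes) and at no member in B2B (5.77% of genes). JunD was called at AREG alone in A549 (17.7% of genes) and at no member in B2B (3.68% of genes). The JunB lists differ in length, with 28068 peaks in A549 and 8563 in B2B. With the A549 list cut to the length of the B2B list, JunB was still called at AREG and HBEGF in A549 and no longer at TGFA.

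At AREG 4 Jun peaks lay within 3 kb of a start site in A549 and 1 in B2B. One of the A549 peaks was weak, with 10 reads and a fold enrichment of 5.51, at the 11.8 percentile of its list. Its summit lay 30 bases before the start, near the cAMP response element and the TATA box printed above. The strongest lay in an intron, 6.23 kb into the gene at chr4:74451165-74451649, and held 65 Jun, 33 JunB and 19 JunD reads. In B2B the same region held 23 Jun reads and neither of the other proteins was called. The level ratio of Jun was 3.3 (2.03 to 5.57), against a median of 0.894 and a 90th percentile of 2.08 over 2529 genes. At EREG a Jun peak with 14 reads had its summit 111 bases before the start in A549, over the promoter shown above. It stood at the 34.3 percentile of its list.

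At HBEGF the order of the lines was the opposite. Its strongest Jun peak within 3 kb held 18 reads in A549 and 65 in B2B, a level ratio of 0.324 (0.181 to 0.553), below the 10th percentile of 0.38. The B2B peak lay 4.81 kb into the gene, where A549 had none. At a shared site 1.72 kb into the gene, A549 held 18 Jun and 41 JunB reads and B2B 54 Jun reads, which are Jun levels of 18.1 and 46.4. TGFA had 14 Jun and 19 JunB reads at its start in A549, at the 9.09 and 4.58 percentiles of the lists, so these were weak peaks. The EGF peak in B2B held 19 Jun reads and covered an internal start site 67.6 kb into the gene.

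Out to 100 kb the 61 Jun-family regions comprised 22 called in A549 alone, 12 called in both lines and 27 called in B2B alone. Over the genome 34.1% of regions were called in A549 alone, 26.5% were shared and 39.4% were called in B2B alone. Of the 61 regions, 31 lay in introns, 11 over exons and 19 between genes, and 14 were within 100 kb of more than 1 member. A549 had 34 regions, of which 23 were bound by 1 of the 3 proteins, 7 by 2 and 4 by all 3. B2B had 39, of which 34 were bound by 1, 1 by 2 and 4 by all 3. All 27 regions called in B2B alone carried Jun, 1 also carried JunB and none JunD. Among the 22 called in A549 alone, 18 carried Jun, 8 JunB and 1 JunD. The lists differ in length, with 35602 Jun, 28068 JunB and 9639 JunD peaks in A549. B2B had 45047, 8563 and 8597. No genome shares are given for these splits by protein or place, so they do not show a trait of these loci.

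The members differed in their mix. AREG had 9 regions called in A549 alone, 3 shared and 2 called in B2B alone, and EREG had 7, 4 and 3. The 2 genes share most of these regions because they are neighbours. HBEGF had the most, with 4, 8 and 8. TGFA had 3, 0 and 7, EPGN 3, 2 and 5, EGF 3, 0 and 3, and BTC 1, 0 and 2. The median coding gene had 2 of each kind and 7 in total, and the 90th percentile was 7, 5 and 7, with 16 in total. AREG exceeded the 90th percentile for A549 alone, and HBEGF for shared regions, for B2B alone and for the total of 20.

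**Figure D3:**
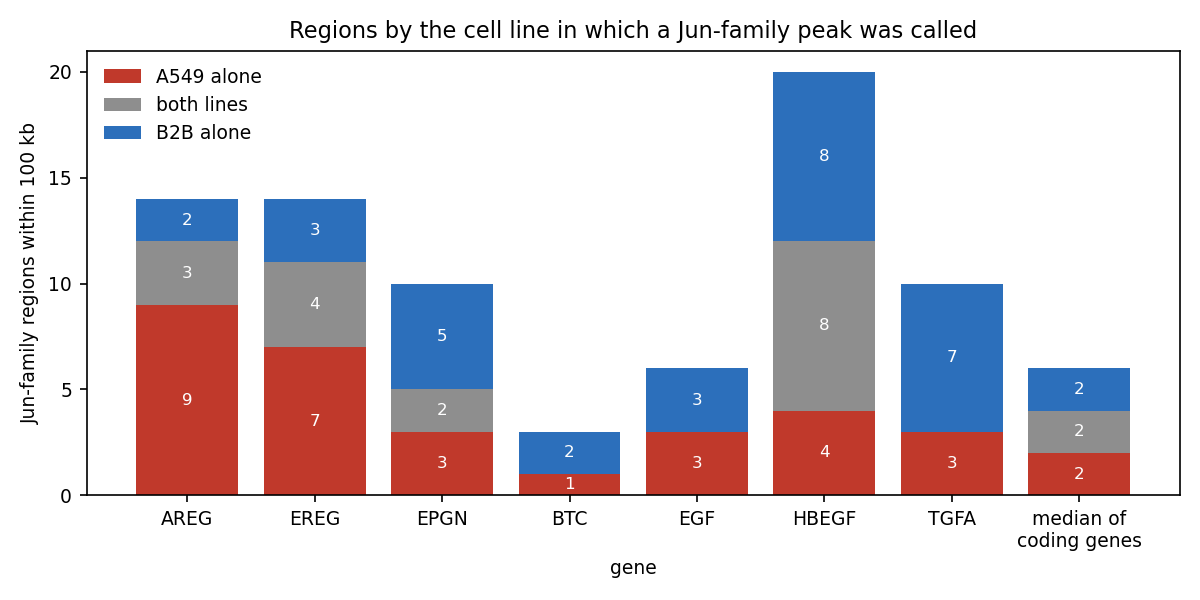
Jun-family regions within 100 kb of a start site of each gene, stacked by the line in which a peak was called; a region near several genes counts for each. The last bar stacks 3 medians over the coding genes of chromosomes 1 to 12, each taken on its own, which do not add up to the median total of 7. AREG has 9 regions called in A549 alone and HBEGF 8 called in B2B alone.

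For display, 2 regions called in A549 alone, 2 shared and 1 called in B2B alone are printed, chosen by the number of the 6 Jun-family lists with a peak there and then by Jun fold enrichment. Each run is 201 bases of the plus strand of hg38 centred on the Jun summit, and capitals mark TGACTCA or TGAGTCA. Distances and places in the labels are those of the whole region. The ANKHD1 run itself lies before the ANKHD1 start, which is 55.2 kb from that of HBEGF, and not over the exon.
A549 alone, 54.8 kb from HBEGF over an exon of ANKHD1 (chr5:140401508-140401708): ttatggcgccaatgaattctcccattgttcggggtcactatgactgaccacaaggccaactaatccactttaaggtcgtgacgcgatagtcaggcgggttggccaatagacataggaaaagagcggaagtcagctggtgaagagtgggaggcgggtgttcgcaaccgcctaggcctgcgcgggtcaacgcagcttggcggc
A549 alone, 4.39 kb from a start site of EGF over an EGF exon (chr4:109945168-109945368): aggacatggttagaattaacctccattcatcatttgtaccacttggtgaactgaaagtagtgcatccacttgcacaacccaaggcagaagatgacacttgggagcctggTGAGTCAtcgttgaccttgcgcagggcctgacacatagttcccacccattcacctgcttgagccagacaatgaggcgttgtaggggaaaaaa
Both lines, 7.01 kb from a start site of EREG in an EREG intron (chr4:74374605-74374805): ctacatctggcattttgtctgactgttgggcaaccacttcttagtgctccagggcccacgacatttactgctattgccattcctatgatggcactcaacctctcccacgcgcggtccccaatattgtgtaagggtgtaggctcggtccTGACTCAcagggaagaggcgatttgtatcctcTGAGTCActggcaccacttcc
Both lines, 73.1 kb from HBEGF in introns of CYSTM1 and PFDN1 (chr5:140261472-140261672): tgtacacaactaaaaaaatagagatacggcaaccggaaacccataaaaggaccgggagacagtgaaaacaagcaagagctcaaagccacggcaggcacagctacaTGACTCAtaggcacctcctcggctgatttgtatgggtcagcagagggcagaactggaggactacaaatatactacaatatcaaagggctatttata
B2B alone, 83.2 kb from HBEGF in introns of CYSTM1 and PFDN1 (chr5:140251646-140251846): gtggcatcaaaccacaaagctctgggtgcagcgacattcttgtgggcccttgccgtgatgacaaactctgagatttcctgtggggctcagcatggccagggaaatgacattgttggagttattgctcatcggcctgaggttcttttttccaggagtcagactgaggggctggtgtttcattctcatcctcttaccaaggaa
The EREG intron window held 2 matches, the EGF exon window and the shared HBEGF window 1 each, and the other 2 windows none. Over all 61 regions the AP-1 site lay within 50 bases of a Jun-family summit in 4 of 22 called in A549 alone (31% of such regions in the genome), 7 of 12 shared (56.8%) and 11 of 27 called in B2B alone (29.2%). A match is a description of letters and does not show a bound site.

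In the chromosome 4 cluster the strongest Jun-family region was the EREG intron region printed above, chr4:74374339-74375413, 9.73 kb into the gene. JunB, Jun and JunD peaks met there in A549 and again in B2B. A549 held 123 Jun, 80 JunB and 26 JunD reads there, and B2B 72, 31 and 16. Its A549 Jun peak, with a fold enrichment of 62.1, stood at the 99.3 percentile of its list. The region also carried H3K4me3, H3K27ac, Med1 and pol II in A549, and Med1 and CTCF in B2B without an H3K27ac peak. Between EREG and AREG lay a region called in A549 alone, 21.6 kb before AREG, with 50 Jun reads and no other peak in either line. A region called in B2B alone lay there too, 26.5 kb before AREG, with 20 Jun reads and no other peak. Within the AREG gene all 4 further A549 regions were bound by Jun alone. Upstream of EPGN the regions lay in MTHFD2L, where 5 were called in B2B alone, 1 in A549 alone and 1 in both lines.

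**Figure D4:**
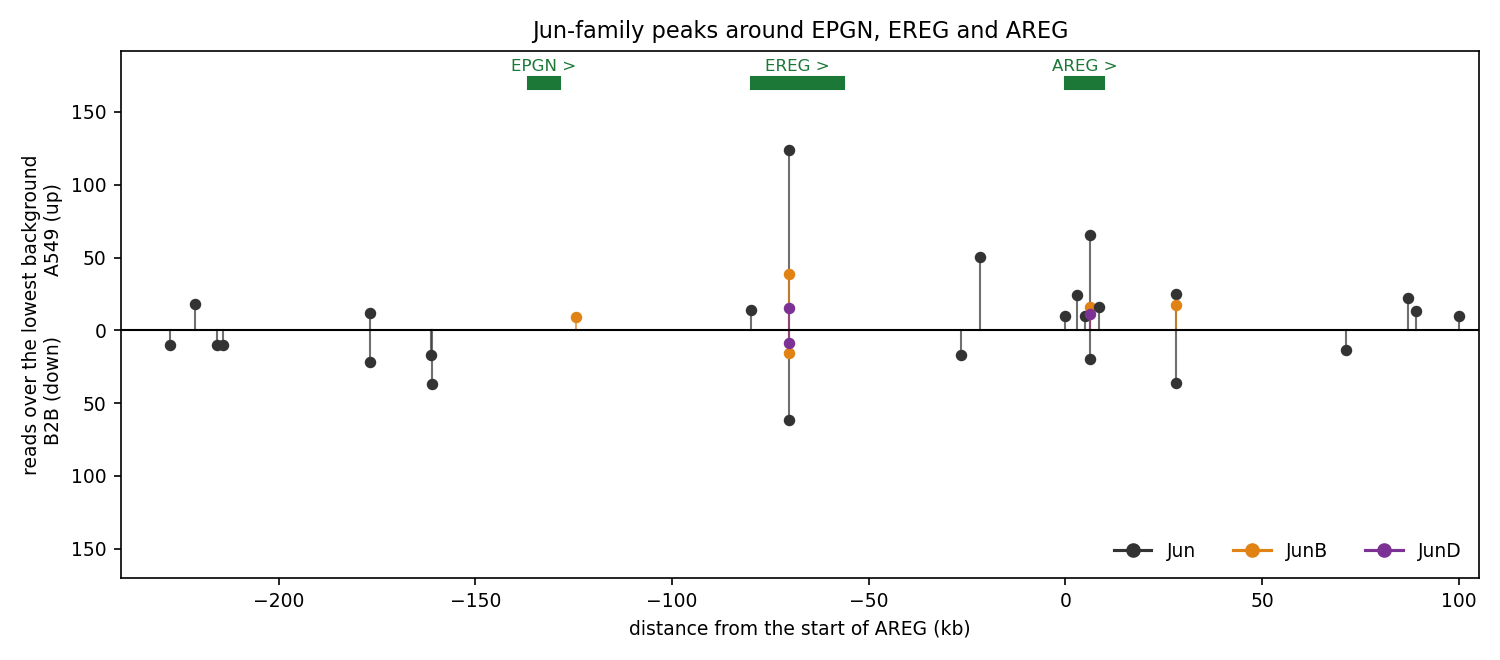
Jun (black), JunB (orange) and JunD (purple) peaks around EPGN, EREG and AREG, placed by distance from the start of AREG in kb, with A549 drawn up and B2B down; height is reads at the summit over the lowest background of the list, and green bars are the genes. The EREG intron region reaches 124 for Jun in A549 and 61.8 in B2B, and the AREG intron region 65.3 and 19.8.

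Around HBEGF 4 of the 20 regions were bound by all 3 proteins in at least 1 line. The shared region at chr5:140261309-140262051 (introns of CYSTM1 and PFDN1) held peaks of each protein in either line, with 32 Jun reads in A549 and 81 in B2B. The region at chr5:140295282-140295808 (a PFDN1 intron) held 169 Jun, 14 JunB and 25 JunD reads in B2B, at the 99.5 percentile for Jun, and 22 Jun reads alone in A549. Between genes at chr5:140310889-140311329, B2B held 53 Jun, 29 JunB and 27 JunD reads, and A549 16 Jun and 22 JunB. At chr5:140401405-140402053, over an exon of ANKHD1, all 3 were called in A549 alone, with 22 Jun, 14 JunB and 19 JunD reads. The first 3 of these lie downstream of HBEGF and had more Jun reads in B2B, and the last lies upstream at another gene's promoter.

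**Figure D5:**
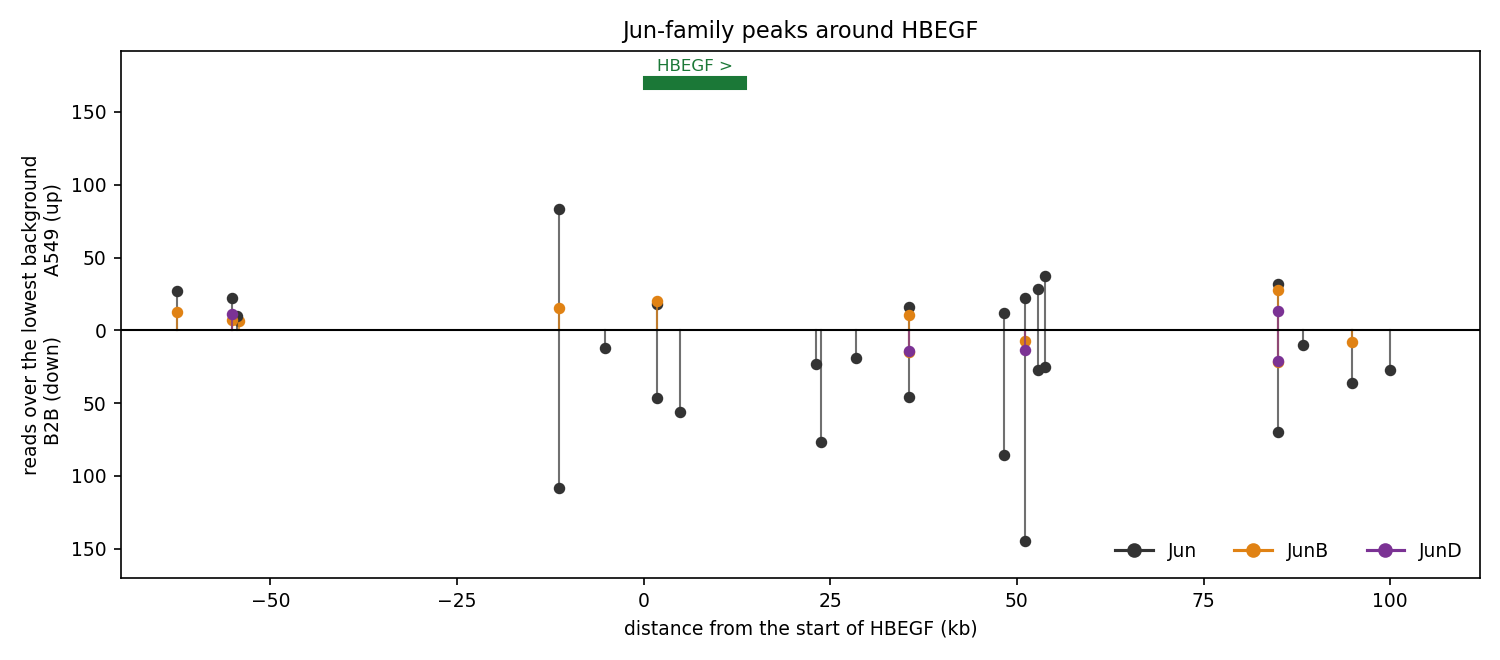
Jun-family peaks around HBEGF, placed by distance from its start in kb along its direction of transcription, drawn as for the chromosome 4 cluster. At the PFDN1 intron region 51.1 kb downstream, Jun stands at 145 in B2B against 22.1 in A549, whereas at the PFDN1 exon region 53.7 kb downstream it stands at 37.2 in A549 against 24.9 in B2B.

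Most of these regions carried no H3K27ac peak of a given line, and the same held for such regions in the genome. Of the 22 called in A549 alone, 6 overlapped an H3K27ac peak of A549 (34.6% of such regions in the genome) and 6 one of B2B (24.2%). These were the starts of TGFA, EREG and AREG and 3 regions at the promoter of ANKHD1. Of the 12 shared regions, 2 overlapped A549 H3K27ac (22.4%) and 1 B2B H3K27ac (19.3%). Of the 27 called in B2B alone, 1 overlapped A549 H3K27ac (1.71%) and 2 B2B H3K27ac (7.4%). CTCF of B2B was more frequent at the regions called in B2B alone, 12 of 27 (26.9% of such regions), than at those called in A549 alone, 3 of 22 (12.6%), and was found at 4 of 12 shared regions (39.1%).

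CTCF and Rad21, which hold chromatin loops, were called in B2B within 3 kb of 6 members (50.9% of genes) and of all 7 (68.1% of genes), with EREG lacking CTCF. They were the only peaks of EPGN, where a CTCF peak of 64 reads coincided with a Rad21 peak of 16 reads 3.42 kb from the start. EGF held 2 CTCF and 2 Rad21 peaks near internal start sites. Within 100 kb HBEGF had 22 CTCF and 14 Rad21 peaks, whereas the other members had 6 to 9 CTCF and 3 to 6 Rad21 peaks. Of the 22 CTCF peaks near HBEGF, 10 coincided with a Rad21 peak. No such counts are given for coding genes in general, so these numbers do not show that HBEGF is unusual.

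The members differed in how many other genes had the same calls in all 16 lists. The 16 calls of TGFA were found at 3 of the other 12572 coding genes, those of EGF at 9, AREG 21, EPGN 113, BTC 143, EREG 167 and HBEGF 306. No such count is given for coding genes in general, so these numbers do not show that a combination is unusual. By the percentile of the strongest peak in each of the 16 lists, the genes most like AREG were C10orf95 (Pearson r = 0.92) and DHX32 (0.91), and those most like EREG RNF103 (0.96) and ENSG00000249773 (0.95). BTC was most like MFSD13A and EPHX4 (0.98 each), HBEGF like GALNT10 (0.90) and VIPR1 (0.87), and TGFA like GALNT14 (0.99) and FOXE1 (0.98). These correlations describe 16 lists of these libraries and share their depth.

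In the rest of the pathway H3K4me3 was found at 19 of 19 receptors, neuregulins, sheddases and adaptors in A549 (74.6% of genes) and at 16 of 19 in B2B (63.1% of genes), where the receptor gene ERBB4, the ligand gene NRG3 and RHBDF2, which escorts ADAM17, lacked it. EGFR, the receptor of all 7 ligands, had pol II, H3K4me3, H3K27ac and Med1 in both lines and a Jun peak in B2B alone. The sheddase gene ADAM17 had JunB, JunD and Jun peaks in A549, and JunD and Jun in B2B. Any Jun-family peak was found at 10 of 19 genes in A549, near the 45% of all genes, and at 9 of 19 in B2B (27.2% of genes). JunB was found at 9 in A549 (32.3% of genes) and 3 in B2B (5.77%), and JunD at 6 (17.7%) and 1 (3.68%). Pol II was found at 11 of 13 genes on scored chromosomes in A549 (68.8% of genes) and 8 of 13 in B2B (51.7%), with NRG1, NRG2 and ADAM12 in A549 alone. ERRFI1, a feedback inhibitor of the receptor, had all 3 Jun-family proteins in A549 and Jun in B2B.

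Of 9 coding genes starting within 100 kb of a member, MTHFD2L beside EPGN and EREG carried pol II, H3K4me3, H3K27ac, Med1, Jun and JunB in both lines. PFDN1 and ANKHD1 beside HBEGF carried pol II, H3K4me3, H3K27ac and Med1 in both lines. SLC4A9, a transporter gene 13.6 kb from HBEGF, had pol II, H3K4me3 and H3K27ac in A549 and none of the 3 in B2B, unlike HBEGF itself.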

How the data were processed

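ChIP-seq of A549 and B2B gave 16 pooled peak lists for 9 targets. Per the methods and labels, the authors aligned reads to hg38 with Bowtie2 2.4.4, removed duplicates, merged the 2 replicates of each group, scaled them with SAMtools 1.13 and called peaks with MACS2 2.2.7.1; the options and control of the caller are not given in the sources used here. The authors deposited for each peak a fold enrichment, which is a ratio of summit pileup to local background, and −log10 of its p-value and q-value; all peaks had a q-value of 0.01 or lower. From fold enrichment and p-value, whole reads and local background were solved (within 0.01 of −log10 p) and divided by the lowest background of the list, which moves with depth and fragment length.

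Start sites came from GENCODE 44. Gene backgrounds used the 12573 coding genes on chromosomes 1 to 12, because 4 lists lack later chromosomes. Overlapping Jun-family peaks (1 bp) were merged, and AP-1 sites were sought within 50 bp of any summit. Intervals of level ratios are exact binomial ones at 95% and cover counting error only. Named were all members, fixed pathway and marker genes, the 2 most alike genes of each member with peaks in 4 or more lists, and regions bound by all 3 proteins. The sequence of 1 region chosen for display is not reported here. The gene family and the gene lists were chosen with earlier results of these data known. No test was made, because each group is 1 pooled list. Distances of 1 and 10 kb, gene starts alone, windows of 50 and 200 kb, −log10 q of at least 5, lists of equal length, 50% reciprocal overlap, joining within 1 kb, summit distances and a motif distance of 100 bp were tried. Python 3.11.15, NumPy 2.4.6, SciPy 1.17.1, pysam 0.24.0 and Matplotlib 3.10.9 were used, and interval and solving steps were checked on simulated data.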

Additional observations from a re-analysis of the deposited data

How the results depend on the processing

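Of 97 values recomputed for 17 results, 86 stayed within 1.5 times the reported count and none reversed. The members with a Jun-family peak in B2B fell from 3 to 1 within 1 kb of a start site (EGF) and to 1 with gene starts alone (HBEGF). Regions called in A549 alone numbered 13 within 50 kb and 35 within 200 kb, shared regions numbered 25 within 200 kb, and regions called in B2B alone numbered 15 within 50 kb, which follows from the size of the window. Regions called in A549 alone minus those called in B2B alone came to -5 as reported, -8 at −log10 q of at least 5, -2 with lists of equal length, -2 within 50 kb and -9 with the Jun lists alone. With the Jun lists alone, an alternative chosen after seeing the data, 2 regions called in A549 alone held the AP-1 site in place of 4. No paired analysis was possible because replicates were merged into 1 list per target and line and no result came from a test. Missing B2B peaks do not show missing signal: the lists hold no values where no peak was called, and the local background at B2B start sites was high for pol II, H3K4me3 and H3K27ac.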
